A study of Gallus gallus with 28 samples.

Results

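The comparison set gene expression 6 h after lipopolysaccharide (LPS) against gene expression after 6 h of heat, in chicks whose parents had been heat conditioned as embryos. Its members were chosen by their labels: the 3 LPS libraries and the 3 heat libraries of the conditioned parental group, 6 of the 28 samples of the series and of its 18 RNA libraries. Each library was made from the anterior preoptic hypothalamus of Cobb broilers (Gallus gallus, a meat-type chicken) on day 10 after hatching. The heat group had been moved from 30 °C to 36 °C, and the LPS group had been injected with LPS in the third brain ventricle. Neither group had been conditioned itself. Per the protocol given for the methylation samples of the series, conditioned eggs were kept at 39.5 °C for 12 h of each day from embryonic day 7 to 16, and control eggs stayed at 37.8 °C. The labels of the RNA libraries speak of conditioned parents and those of the methylation samples of the paternal side.

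The same contrast in the non-conditioned parental group, with 3 LPS and 3 heat libraries of its own, served for comparison. Both sides of each contrast were challenged for 6 h, so that time since the start was the same. Neither an injection without LPS nor 6 h without a challenge is among the groups, so LPS cannot be told apart from the injection, nor heat from the move. A difference between the sides can come from a change under LPS, under heat, or both. The libraries were made from lysed tissue, in which fewer cells of a type and less RNA per cell cannot be told apart. Neither the sex of the chick behind a library nor whether each library came from a separate animal is given in the labels. P-values therefore measure the spread between these libraries.

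The preoptic area of the hypothalamus holds temperature-sensitive neurons and adjusts heat loss and heat production. LPS, a component of the outer membrane of Gram-negative bacteria, is recognised by Toll-like receptor 4 on microglia, macrophages and endothelium. In mammals that receptor switches on NF-kB and interferon-dependent genes, among them cytokines, chemokines and the enzymes of prostaglandin synthesis. Prostaglandin E2 acting on preoptic neurons raises body temperature in fever. Heat, by contrast, is known to engage the heat shock factors and their chaperone genes. None of these genes could be looked up, because the deposited table gives identifiers without gene names. The reference table used here holds no Ensembl identifiers, so that none of the 11207 in the deposited table could be matched. The genes are therefore given by identifier and described by their levels, and the tissue label could not be checked against marker genes.

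The 3 LPS libraries held 1166296 to 2651603 counts and the 3 heat libraries 1214734 to 3199597, so that depth overlapped. Between 10047 and 10902 genes were counted in each of the 6, and the 10 most abundant genes took 11.4% to 16.8% of the counts. Pearson's r of log2 CPM (counts scaled to a common library size) across genes was 0.946 to 0.951 between LPS libraries, 0.955 to 0.969 between heat libraries and 0.923 to 0.954 between the 2 sides. No replicate pair differed by so little as to look like a repeated deposit of 1 library. The chi-square per degree of freedom was at least 3.92 for every pair within a group, over the groups of the 18 libraries. Pairs across groups were not compared.

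LPS library 1 held the most genes above its group mates. It had 24 genes at 10 CPM or more and at least 4 times the level of each of the other 2 LPS libraries, against 13 such genes in LPS library 2, 13 in LPS library 3 and 1 to 17 in the other 15 libraries of the series. The median level of those 24 genes was 39.1 CPM in LPS library 1 and 3.58 and 3.64 CPM in LPS libraries 2 and 3. It was 7.80 to 9.64 CPM in the 3 heat libraries, and 19.2 and 24.3 CPM in libraries 2 and 3 of the unchallenged (t0) chicks of the same parental group. Summed over the 24 genes, LPS library 1 held 9476 CPM, those t0 libraries 7055 and 4103 CPM, and heat library 2 of the non-conditioned group 3179 CPM, against 480 to 1097 CPM in the other 14 libraries. Much of these sums was ENSGALG00000006453.6, at 7835, 5539, 2963 and 2061 CPM in the 4. In the other direction, 10 genes of LPS library 1 were lower than in both group mates by the same factor, within the 1 to 33 of the 18 libraries. Levels that include t0 libraries are scaled over all 18 libraries.

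Among the 24 were 4 genes that were either present or nearly absent, library by library: ENSGALG00000037690.2, ENSGALG00000040086.2, ENSGALG00000040780.1 and ENSGALG00000045261.1. They stood at 13.9 to 83.0 CPM in 11 of the 18 libraries and at 1.84 CPM or below in the other 7. In all, 8 genes met the rule for such a pattern, and these 4 were picked because they shared the commonest one. That they were present in the same libraries thus follows from the choice. All 3 heat libraries of the conditioned group carried them, and of its LPS libraries only library 1 did. In the non-conditioned group they were present in 1 of 3 heat and 1 of 3 LPS libraries. The compared groups thus differed in how many libraries carried these genes, and the part of this in the results was not tested. None of the 4 passed the test of LPS against heat (adjusted p 0.764 to 0.925, edgeR). The rules behind the 24 genes and the 4 genes were chosen after the values were seen.

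**Figure D1:**
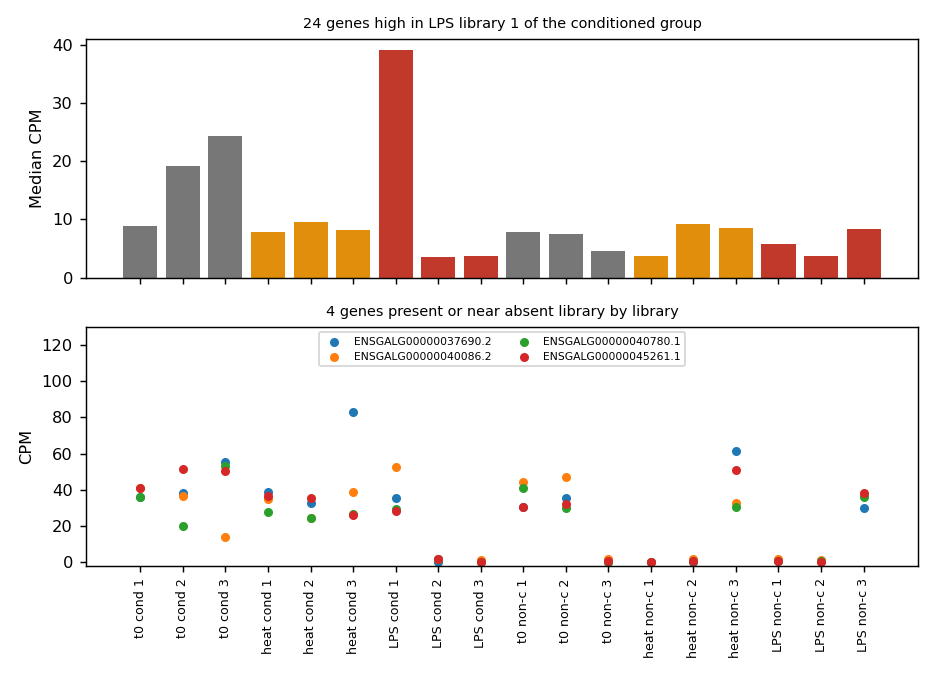
Levels in CPM in each of the 18 libraries, 3 per group (cond, conditioned parents; non-c, non-conditioned parents). The upper panel gives the median of the 24 genes that stood high in LPS library 1 of the conditioned group, 39.1 CPM there against 3.58 and 3.64 CPM in its group mates. The lower panel gives 1 point per library for each of the 4 genes that were present in 11 libraries and nearly absent in 7.

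LPS against heat was mainly a difference in one direction. In the conditioned group 119 genes were higher under LPS and 6 lower, out of 7728 genes tested (edgeR quasi-likelihood test, Benjamini-Hochberg adjusted p under 0.05). The called genes were 1.62% of those tested, 1.54% higher and 0.0776% lower. The median log2 fold change over all genes tested was -0.01, a value that TMM scaling holds near 0, so that differences are relative to the bulk of the genes. At an unadjusted p under 0.05, 433 genes were higher and 246 lower, 8.79% of the genes tested in all. All 119 higher genes had their lowest LPS library above their highest heat library, and all 6 lower genes the reverse. Such a separation of 3 from 3 libraries was found for 7.41% of the tested genes in the direction of LPS and for 6.43% in the direction of heat. The genes were called on these same libraries, so their separation is a description and no further support.

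The differences upward were large. Among the 119, the median log2 fold change was 2.12, with a range from 0.58 to 6.60 among those with any count under heat and a median standard error of 0.31. More than a 2-fold difference was fitted for 105 of them, more than 4-fold for 65 and more than 16-fold for 18. The 6 lower genes had log2 fold changes from -2.23 to -0.82, with a median of -1.52. Of these, 5 were more than 2-fold lower and none more than 16-fold. Another 30 genes had fitted differences over 4-fold without passing the test, 21 upward and 9 downward.

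**Figure D2:**
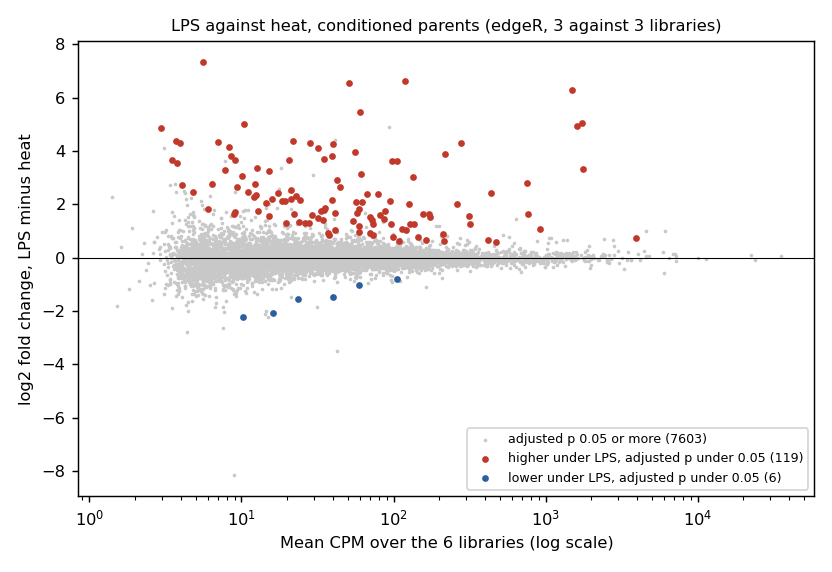
Log2 fold change of LPS minus heat in the conditioned group against the mean CPM over the 6 libraries (log axis), 1 point per tested gene. Coloured points are the 119 genes higher and the 6 genes lower under LPS at an adjusted p under 0.05 (edgeR). The higher genes spread from low to high levels but reached at most a mean of 4884 CPM under LPS. The most abundant tested gene had a mean of 35289 CPM over the 6 libraries.

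The genes higher under LPS covered a wide range of levels under heat. Their mean level in the heat libraries had a median of 14.9 CPM, against 31.2 CPM over all genes tested, and in the LPS libraries of 75.3 CPM, against 32.2 CPM. Under heat 70 of the 119 were above 10 CPM and 16 above 100 CPM, while 49 were below 10 CPM and 12 below 1 CPM. Under LPS 49 were above 100 CPM and 8 above 1000 CPM, a level that 1 of the 119 reached under heat. The 6 lower genes had a median of 46.7 CPM under heat and 16.4 CPM under LPS.

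Higher genes were found from low to high levels of expression. Cut into 4 parts of 1932 genes by mean CPM, the tested genes held 21, 26, 35 and 37 of the 119 from the lowest to the highest part, and 1, 2, 2 and 1 of the 6. The median standard error of the log2 fold change fell from 0.48 to 0.15 over the same parts, so that smaller differences could pass the test among abundant genes. The median log2 fold change of the higher genes was 3.55 in the lowest part and 1.62 in the highest.

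The 10 higher genes with the largest mean level under LPS stood between 566 and 4884 CPM there, with log2 fold changes from 0.58 to 6.29. Together they took 0.528%, 0.543% and 0.495% of the counts in the heat libraries 1, 2 and 3. In the LPS libraries 1, 2 and 3 they took 2.95%, 2.04% and 1.69%. ENSGALG00000006453.6 alone made up 0.789% in LPS library 1, and the other 9 genes took 2.16%, 1.95% and 1.59% of the LPS libraries. The genes were chosen for a higher level under LPS, so that these shares are a description of its size.

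The largest rise among genes with a mean of at least 10 CPM belonged to ENSGALG00000046192.1. It stood at 2.68, 3.50 and 1.26 CPM in the heat libraries (9, 4 and 3 counts) and at 126, 373 and 208 CPM in the LPS libraries (342, 419 and 317 counts). The lowest LPS library thus held more than the highest heat library by a wide margin, and LPS library 2 was the highest. The means were 2.48 ± 1.13 and 236 ± 126 CPM (SD, n = 3 each). The log2 fold change was 6.60 ± 0.58 (SE) and the adjusted p 6.8e-06 by edgeR. In t0 chicks of the conditioned group it stood at 7.17, 34.9 and 10.2 CPM and in those of the non-conditioned group at 3.72, 1.39 and 0.283 CPM, so that t0 library 2 of the conditioned group was the highest outside the LPS groups. In the non-conditioned group it went from 9.14 ± 4.77 CPM under heat to 171 ± 69.0 CPM under LPS, a log2 fold change of 4.38 ± 0.50 with an adjusted p of 0.000117.

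The next largest rise was that of ENSGALG00000028256.2, a gene close to the limit of detection under heat. The heat libraries held 5, 1 and 1 counts of it (1.49, 0.875 and 0.420 CPM). The LPS libraries held 163, 169 and 142 counts (60.2, 151 and 93.4 CPM). All 3 LPS libraries were far above all heat libraries, and the order of the LPS libraries was the same as for the gene before. The log2 fold change was 6.53 ± 0.60 with an adjusted p of 9.7e-06 by edgeR. The non-conditioned group gave 6.78 ± 0.60, from 1.08 ± 1.06 to 134 ± 61.8 CPM. The difference between the parental groups was -0.25 on the log2 scale, with an adjusted p of 0.996 by edgeR.

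A single higher gene, ENSGALG00000028039.2, had no count in any of the 3 heat libraries. The LPS libraries held 8, 27 and 10 counts of it. Against a floor of 3 counts over the heat group, this made it at least 19.3-fold higher under LPS. Its adjusted p was 0.0384 by edgeR, and it was named after its values were seen. The call was lost without any of the heat libraries 1, 2 or 3, without LPS library 2 or 3, and without LPS library 1 or 2 of the non-conditioned group (adjusted p 0.0542 to 0.167). It was also lost with voom (0.113) and with the robust setting of edgeR (0.0613).

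The largest fall was that of ENSGALG00000023781.2, at 17.6, 19.3 and 13.9 CPM under heat and 4.06, 4.46 and 1.97 CPM under LPS. The 2 sides did not overlap, though the LPS libraries held only 11, 5 and 3 counts. The log2 fold change was -2.23 ± 0.51 with an adjusted p of 0.0380 by edgeR. The call was lost whichever of the 6 libraries was left out (adjusted p 0.0772 to 0.157), without LPS library 2 of the non-conditioned group (0.0574), and with voom in place of edgeR (0.0966). In the non-conditioned group the gene stood at 12.0 ± 3.91 CPM under heat and 5.16 ± 3.96 CPM under LPS, with overlapping libraries, which did not pass the test (log2 fold change -1.18 ± 0.50, adjusted p 0.446).

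ENSGALG00000001177.5 followed, at 22.3, 14 and 41.2 CPM under heat and 5.17, 4.46 and 9.21 CPM under LPS. Its heat libraries differed more among themselves, with library 3 the highest, but all lay above the LPS libraries. The log2 fold change was -2.07 ± 0.43 with an adjusted p of 0.0219 by edgeR. That call was lost without heat library 3 (0.139), without LPS library 1 (0.101) or 2 (0.0975), and with voom (0.0966). The non-conditioned group gave -1.97 ± 0.42 with an adjusted p of 0.0254, a call that was lost without heat library 1 or 2 or LPS library 1 or 2 of that group (adjusted p 0.0528 to 0.123).

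The genes lower in both parental groups were 3: ENSGALG00000001177.5, ENSGALG00000024449.4 and ENSGALG00000036686.1. The second stood at 48.2, 70.9 and 56.7 CPM under heat and 15.9, 16.0 and 30.9 CPM under LPS, with LPS library 3 the nearest to heat. Its log2 fold change was -1.48 ± 0.27 with an adjusted p of 0.00622 by edgeR in the conditioned group. ENSGALG00000036686.1 stood at 29.8, 32.4 and 42.4 CPM under heat and 9.23, 10.7 and 15.8 CPM under LPS. All its LPS libraries were below all its heat libraries, and its log2 fold change was -1.57 ± 0.27 with an adjusted p of 0.00431. The fall of ENSGALG00000036686.1 passed the test under all 24 alternatives tried. The 3 genes called lower in the conditioned group alone were ENSGALG00000023781.2, ENSGALG00000006409.5 and ENSGALG00000016415.6, and all 3 had a negative log2 fold change in the non-conditioned group that did not pass the test.

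**Figure D3:**
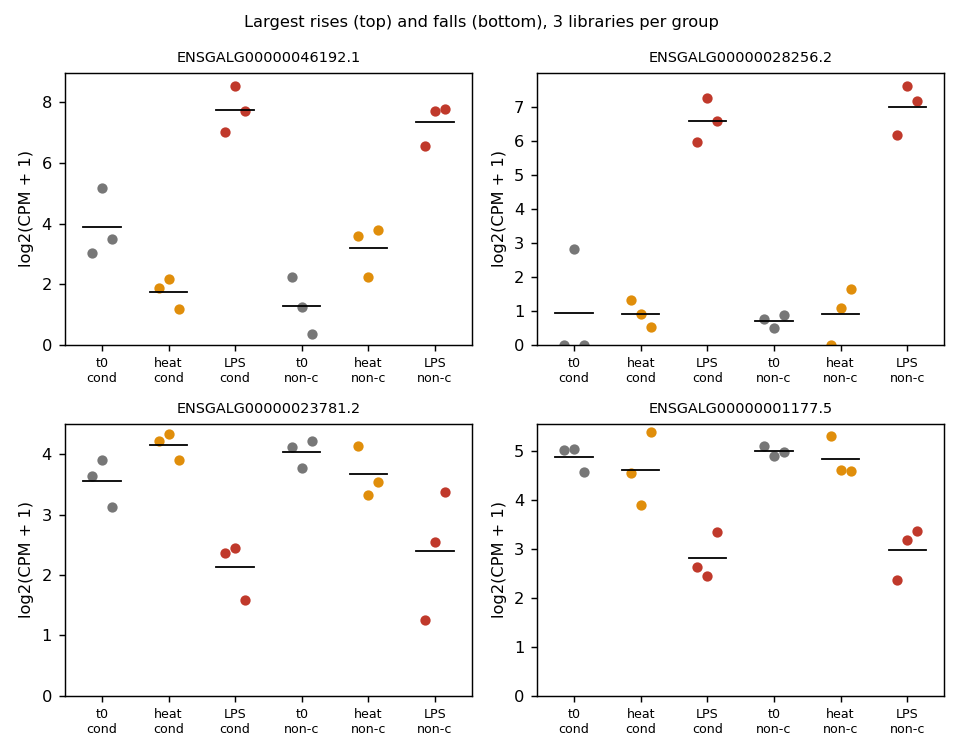
CPM in each of the 3 libraries per group for the 2 genes with the largest rise (top) and the 2 with the largest fall (bottom) under LPS against heat in the conditioned group. Points are libraries. For the rising genes all LPS libraries of both parental groups lie above all heat and t0 libraries; for ENSGALG00000023781.2 the LPS and heat libraries of the non-conditioned group overlap.

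The non-conditioned group supplied libraries that were in neither side of the comparison. There 122 genes were higher under LPS than under heat and 16 lower (edgeR, adjusted p under 0.05), 1.79% of the genes tested in all, 1.58% higher and 0.207% lower. Of the genes higher under LPS, 91 were called in both parental groups, 76.5% of the conditioned and 74.6% of the non-conditioned list. The 3 genes lower in both were 3 of 6 in the one list and 3 of 16 (18.8%) in the other. No gene was called in opposite directions. All challenged libraries were fitted in the same model, so both lists share the scaling, the filter and the estimate of spread. The 2 lists of calls are therefore not independent. With each parental group fitted alone, 75 genes were called higher in both.

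Read in the conditioned libraries, the 122 genes chosen on the non-conditioned group had a median log2 fold change of 1.76, against 1.74 where they were chosen. Of these, 121 were positive in the conditioned group and 114 had all LPS libraries above all heat libraries. Among all genes tested, 48.3% were positive and 7.41% were separated in that way. The exception was ENSGALG00000042863.2, at 199 ± 34 CPM under LPS and 217 ± 17 CPM under heat in the conditioned group. The 16 genes lower in the non-conditioned group were all negative in the conditioned group as well, with a median of -0.40 against -1.11 where they were chosen, and 8 of them did not overlap. Among all genes tested, 51.7% were negative in the conditioned group and 6.43% had all LPS libraries below all heat libraries.

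As a share of the library, those 122 genes took 0.542%, 0.427% and 0.515% of the counts in the heat libraries 1, 2 and 3 of the conditioned group. In its LPS libraries they took 2.66%, 2.40% and 1.91%. The means were 0.495% ± 0.060 and 2.32% ± 0.38 (SD, n = 3 each), and no LPS library came near a heat library. The non-conditioned group, on which the list was chosen, had 0.498% ± 0.056 under heat and 2.37% ± 0.20 under LPS.

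LPS library 2 held the highest levels of many of these genes. It had the highest level of the 3 LPS libraries for 68 of the 119 higher genes (57.1%), library 1 for 28 and library 3 for 23. Among all genes tested, 35.4% were highest in library 2. Of the 122 genes chosen on the non-conditioned group, 69 were highest in library 2, 31 in library 1 and 22 in library 3. Among the 70 higher genes with at least 10 CPM under heat, the highest LPS library exceeded the lowest by a median of 1.43-fold, against 1.38-fold over the 6117 tested genes at that level. The heat libraries differed by a median of 1.45-fold for the same 70 genes and 1.33-fold for the 6117, on values of CPM + 1.

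The difference of LPS against heat between the parental groups was tested directly, and no gene passed (edgeR, 0 of 7728 genes, 0%, smallest adjusted p 0.965). DESeq2 and voom called 0 genes as well, and 313 genes (4.05%) had an unadjusted p under 0.05 in edgeR. For the 91 genes higher in both groups, the fold changes differed by a median of 0.27 on the log2 scale in either direction, with a median standard error of 0.43 and a range from -2.65 to 2.22. For 84 of them the fold changes were within 2-fold of each other. The 91 were chosen for being called higher in both groups, so that part of this closeness follows from the choice. The upper end of that range was ENSGALG00000046192.1, whose difference of 2.22 ± 0.88 had an unadjusted p of 0.0234 and an adjusted p of 0.965.

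Genes called in 1 parental group alone mostly moved the same way in the other. Of the 28 called higher in the conditioned group alone, 26 were positive in the non-conditioned group and 21 of those had an unadjusted p under 0.05 there. Of the 31 called higher in the non-conditioned group alone, 30 were positive in the conditioned group and 23 of those had an unadjusted p under 0.05. The 2 conditioned genes with a negative value in the other group were ENSGALG00000006453.6 and ENSGALG00000029193.1, and each had 1 LPS library far above the other 2. Over all genes tested, 48.7% were positive in the non-conditioned group and 5.43% positive with an unadjusted p under 0.05, and in the conditioned group 48.3% and 5.60%.

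ENSGALG00000006453.6 stood at 7724, 943 and 997 CPM in the LPS libraries and 193, 346 and 425 CPM in the heat libraries. Its level in LPS library 1 was far above the others, and it was 1 of the 24 genes that stood high there. The log2 fold change was 3.33 with an adjusted p of 0.0459 by edgeR, and without LPS library 1 it was 1.60 with an adjusted p of 0.237. Its heat libraries in the non-conditioned group stood at 351, 2044 and 417 CPM, with library 2 far above the others, and its LPS libraries there at 704 ± 153 CPM. ENSGALG00000029193.1 stood at 9.96, 48.1 and 11.2 CPM under LPS and 2.08, 2.63 and 1.68 CPM under heat. Here LPS library 2 was the highest, and the other 2 also lay above every heat library of the conditioned group. In t0 chicks ENSGALG00000029193.1 stood at 10.0, 26.2 and 21.8 CPM in the conditioned group. In those of the non-conditioned group it stood at 10.9, 14.7 and 6.79 CPM. The heat libraries of the conditioned group were thus the lowest of the 18 for this gene, and LPS libraries 1 and 3 were within the range of the t0 libraries. The log2 fold change was 3.36 with an adjusted p of 0.0258, and without LPS library 2 it was 2.33 with an adjusted p of 0.104. In the non-conditioned group it stood at 24.6 ± 16.9 CPM under heat and 19.3 ± 1.51 CPM under LPS. One more called gene, ENSGALG00000013993.6, belonged to the 24, and its log2 fold change went from 3.65 to 1.65 and its adjusted p from 0.0460 to 0.492 without LPS library 1. The other 22 of the 24 were not called.

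A gene called in the non-conditioned group alone was ENSGALG00000030845.1, singled out after its values were seen. There it stood at 350, 333 and 409 CPM under heat and 187, 210 and 154 CPM under LPS, a log2 fold change of -0.99 ± 0.14 with an adjusted p of 0.000973 by edgeR. In the conditioned group it stood at 290 ± 24.6 CPM under heat and 269 ± 28.7 CPM under LPS, a log2 fold change of -0.11 ± 0.14 with an adjusted p of 0.897. The difference between the parental groups was 0.88 ± 0.20 with an unadjusted p of 0.000504, and it failed the correction over all genes (adjusted p 0.965).

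**Figure D4:**
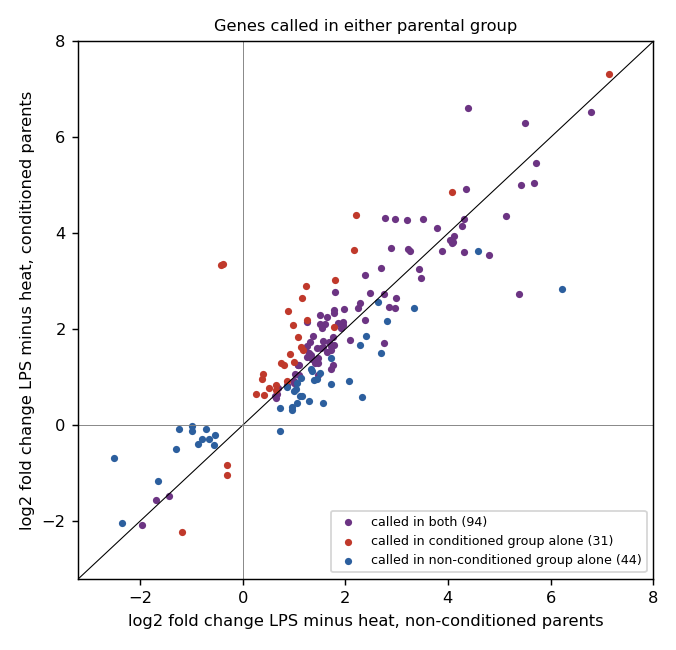
Log2 fold change of LPS minus heat in the conditioned group (vertical axis) against that in the non-conditioned group (horizontal axis), for genes called in either group. Each point is 1 gene, with colours for genes called in both groups or in 1 alone. Genes called in neither group are not shown. The 91 genes called higher in both lie mostly near the diagonal, in part because they were chosen for a rise in both. Of the genes called higher in the conditioned group alone, 2 lie below 0 in the other group.

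The t0 libraries were in neither side of the comparison and give a further level for each gene. They come from chicks without any challenge, so they match neither side in time, injection or move. The mean of the conditioned t0 group includes its libraries 2 and 3, which were high in the summed level of the 24 genes. The share of all tested genes with t0 nearer to heat is not given here. On the scale of log2(CPM + 1), the t0 mean of the conditioned group was nearer to heat than to LPS for 108 of the 119 higher genes, and that of the non-conditioned group for 117. With heat set to 0 and LPS to 1, the median position of t0 was 0.13 in the conditioned and 0.0022 in the non-conditioned group. The median of heat minus t0 over the 119 was -0.23 against the conditioned and -0.01 against the non-conditioned t0 chicks, and that of LPS minus t0 was 1.60 and 1.87. Over all genes tested these medians were between -0.01 and 0.03. For the 6 lower genes t0 was nearer to heat for 5 in the conditioned and for 6 in the non-conditioned group. The median position of the conditioned t0 chicks was thus slightly toward LPS. Of the 24 genes that stood high in LPS library 1, 16 and 18 were at 10 CPM or more in their libraries 2 and 3, against 10 in their library 1 and 9 to 12 in the heat libraries of the conditioned group. Of the 24 genes, 2 were among the 119 higher genes, and whether the levels of the 24 and the median position go together was not tested. The positions share the heat and LPS libraries with the choice of the genes, and no test was made.

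**Figure D5:**
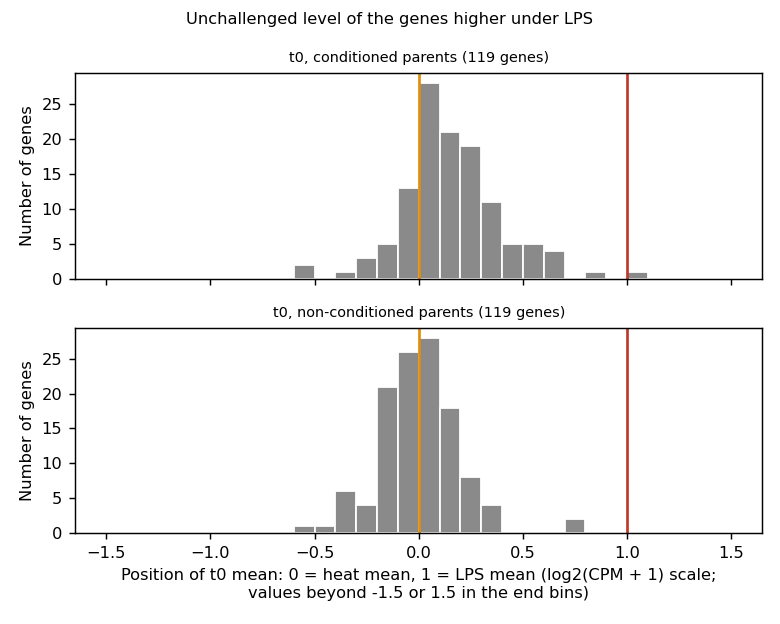
Number of the 119 higher genes by the position of their t0 mean between the heat mean (0) and the LPS mean (1) of the conditioned group, on the log2(CPM + 1) scale, for the t0 libraries of either parental group. Most t0 means lie near heat, with medians of 0.13 (conditioned) and 0.0022 (non-conditioned).

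The calls depended on the libraries in different degrees. Of the 119 higher genes, 64 passed the test with each of the 6 libraries left out in turn, and 55 lost the call at least once. Each of the 119 was fitted under 22 to 24 of the 24 alternatives tried, and its log2 fold change was positive in all of those. Their LPS libraries all lay above their heat libraries, so that leaving out a library could hardly change this sign. The 68 genes kept by the stricter filter were fitted under all 24, and 38 of them passed the test in each. Of the 64 genes, 61 were also called in the non-conditioned group (95.3%), against 30 of the 55 (54.5%). Their median log2 fold changes were 2.28 and 1.62. Of the 6 lower genes, ENSGALG00000024449.4 and ENSGALG00000036686.1 passed with each of the 6 libraries left out. The count of called genes went from 125 to 76 without heat library 1 and to 80 without heat library 3, and to 110 without LPS library 1, of which 93 were among the 125.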

How the data were processed

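RNA of the anterior preoptic hypothalamus was sequenced by bulk MARS-seq, a 3′-end method, from 15 ng of RNA with single reads of 100 bases, per the labels' protocols. The submitters' processing notes name cutadapt, STAR, HTSeq, DESeq2 and the galGal5 build. For these tools, versions and settings were not given in the sources used here, nor is how molecular identifiers and strand were handled or why these genes are listed. Without gene models, sharing of reads between paralogs or overlapping genes could not be assessed. The authors deposited raw counts per gene and library, and, per the file headers, a normalized signal for the same libraries. The counts were tested and the signal gave 1 alternative set of scaling factors.

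The quasi-likelihood test of edgeR 4.0.16 (R 4.3.3) was run on the counts of the 12 challenged libraries with TMM factors, in 1 model with 4 group means. Of 11207 genes, 7728 passed filterByExpr by group and held 99.2% to 99.5% of the counts of each of the 18 libraries. Benjamini-Hochberg adjustment ran over all genes tested, with a threshold of 0.05. A standard error is the absolute log2 fold change over the square root of its F statistic. It can be unstable for a difference near 0 and is not given for that of ENSGALG00000028256.2. CPM values use TMM factors, as mean ± SD over libraries. DESeq2 1.42.0, voom (limma 3.58.1), other scalings, filters, sets of libraries and replicate blocks, and each replicate left out were alternatives. The t0 libraries were described only, and the 10 methylation libraries are not analysed here.

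The comparison and the gene lists were chosen with earlier results of these data known. Gene lists and cell type markers needed gene names and could not be applied. Genes named are the 2 largest rises and the 2 largest falls among called genes with a mean of at least 10 CPM and no overlap between the 2 sides. Genes behind counts of 5 or fewer are named too, and others where the text says that their values had been seen first.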

Additional observations from a re-analysis of the deposited data

How the results depend on the processing

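No gene called in the conditioned group changed direction in any of the 24 alternatives under which it was fitted, but sizes moved. All these genes had separate LPS and heat libraries, so that leaving out a library could hardly reverse them. Of the calls in the non-conditioned group, only those of a few named genes were checked for direction. With the list drawn anew each time, genes higher in the non-conditioned group took a mean of 1.91% to 2.84% of the conditioned LPS libraries. The t0 mean was nearer to heat for 88.6% to 97.2% of the higher genes in the conditioned group. In the non-conditioned group this was 96.4% to 100%. A stricter filter asked for at least 10 counts in each of the 12 challenged libraries and kept 5541 genes. Only 68 of the 119 higher and 4 of the 6 lower genes were tested under it, since genes near 0 on 1 side were removed. The 125 genes called in the conditioned group became 64 (61 higher, 3 lower) with this filter, and 76 to 132 with 1 replicate left out. The other alternatives gave 93 (voom) to 145 (DESeq2) genes, with 104 from the 6 libraries alone and 114 without LPS library 1 of the conditioned and heat library 2 of the non-conditioned group, an alternative chosen after seeing the data. The 138 genes of the non-conditioned group became 76 with the stricter filter, 90 without those 2 libraries and 76 to 139 with 1 replicate left out; they fell to 78 without heat library 1, 83 without heat library 2 and 76 without LPS library 2 of that group. The 91 genes higher in both became 49 with the stricter filter and 60 to 76 with 1 replicate left out, the lowest without heat library 1 of the non-conditioned group. The difference between parental groups stayed at 0 calls throughout. Part of the fall under the stricter filter in the conditioned group follows from the genes it removed. The cause of the other changes was not tested.

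The replicate numbers gave no clear pairing of the libraries, though correlations from 3 libraries per group cannot exclude one. Deviations from the group means correlated at 0.014, 0.034 and -0.24 between heat and LPS libraries of the same number in the conditioned group and at 0.089, 0.019 and 0.24 in the non-conditioned group, and not every library correlated best with its own number. With the number of the titles as a replicate block, 111 genes were called in the conditioned group. With the number of the descriptions, which differs for some libraries, 96 were called there and 90 in the non-conditioned group. Of the genes described, ENSGALG00000023781.2 was not called with either block (adjusted p 0.0789 and 0.137), and ENSGALG00000001177.5 (0.0919; 0.0885 in the non-conditioned group) and ENSGALG00000028039.2 (0.0846) not with that of the descriptions.

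Depth was 1166296 counts in the shallowest of the 6 libraries, and genes of a few counts under heat have uncertain fold changes. For ENSGALG00000028039.2, which had no count under heat, only a lower bound is given.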

Other observations

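Large differences between parental groups at single libraries were seen for 2 genes, chosen after their values were seen. Both belong to the 24 genes that stood high in LPS library 1 of the conditioned group. ENSGALG00000015143.6 stood at 506, 26.7 and 1.32 CPM under LPS in the conditioned group, with a heat mean of 8.05 ± 7.88 CPM (SD, n = 3). In the non-conditioned group it stood at 17.3, 369 and 21.9 CPM under heat, with an LPS mean of 2.02 ± 3.04 CPM. ENSGALG00000018557.4 stood at 207, 15.2 and 13.8 CPM under LPS in the conditioned group and at 1.82, 241 and 9.91 CPM under heat in the non-conditioned group. Of the challenged libraries, both genes were high in LPS library 1 of the conditioned and heat library 2 of the non-conditioned group. They also stood high in t0 libraries 2 and 3 of the conditioned group. There ENSGALG00000015143.6 was at 718 and 403 CPM and ENSGALG00000018557.4 at 160 and 164 CPM. The log2 fold changes were 4.90 and 4.42 in the conditioned group (adjusted p 0.253 and 0.225, edgeR) and -6.02 and -3.78 in the non-conditioned group (0.182 and 0.252). Neither passed the test of the difference between parental groups (adjusted p 0.965 for both).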
